A study of Homo sapiens with 9 samples.

Results

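The transcripts described here encode 9 subunits of cytoplasmic dynein 1 (DYNLRB1, DYNLL1, DYNLL2, DYNLT1, DYNLT3, DYNC1H1, DYNC1I2, DYNC1LI1 and DYNC1LI2) and DCTN1, a subunit of its cofactor dynactin. These 10 genes were taken by symbol from a table of 63677 genes. DYNLRB1 was chosen by its low level after TG2 knockdown in these same libraries, and the other genes were gathered around it with that value known. The values of DYNLRB1 are therefore given as a description with no test. The other 9 genes were tested within a fit of all 17663 genes whose mean over the libraries was at least 10.

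The cells were HCT116, a human colon carcinoma line, transfected with small interfering RNA by Lipofectamine RNAiMAX and taken 48 h later for sequencing of polyadenylated RNA. The siRNF40 group (labelled RNF40 knockdown) received siRNA against RNF40, a ubiquitin ligase that modifies histone H2B. The siTG2 group (labelled TG2 knockdown) received siRNA against TGM2, the gene of the transglutaminase TG2, which the series links to serotonin carried by histone H3. The siControl group, labelled WT, received a control siRNA, so that all 3 groups were transfected. Each group had 3 libraries of the same line, and the labels do not say whether these came from separate cultures. The p-values then measure only the spread between these libraries, which may be technical.

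Cytoplasmic dynein 1 walks toward the minus ends of microtubules and moves organelles, messenger RNAs and chromosomes toward the cell centre. Its heavy chain is the motor, and its intermediate and light intermediate chains link the motor to dynactin and to cargo adaptors. Small light chains of the roadblock, LC8 and Tctex families sit as dimers on the intermediate chains. Epithelial cells use the complex to place the Golgi apparatus, the nucleus and the mitotic spindle.

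The libraries held between 29161285 and 35743918 reads in genes. Genes with a read numbered 27123 to 27602 in siTG2 libraries and 25162 to 25548 in the others. Normalized counts summed to between 2.88e+07 and 2.95e+07 in siTG2 libraries and between 3.21e+07 and 3.32e+07 in the others. RNF40 had 535, 497 and 528 normalized counts in siRNF40 libraries, 2249, 2506 and 2158 in siTG2 libraries and 3004, 2784 and 2565 in siControl libraries. TGM2 had 839, 830 and 963 normalized counts in siRNF40 libraries, 59.4, 121 and 155 in siTG2 libraries and 559, 702 and 554 in siControl libraries. Each targeted transcript was thus below every siControl library in its own knockdown, at 18.7% of the siControl mean for RNF40 and 18.5% for TGM2. RNF40 was also called lower in siTG2, at 82.8% of the siControl mean (log2 fold change -0.27, limma adjusted p = 0.019). TGM2 in siRNF40 was at 0.54 on the log2 scale against siControl and did not pass the test (limma adjusted p = 0.063). Of 8 epithelial markers, 7 had a mean of at least 10, and the summed level of the list ran from 139524 to 164714 in siRNF40, from 81374 to 93383 in siTG2 and from 94314 to 103303 in siControl libraries. Of 6 fibroblast markers, 2 (COL1A1 and PDGFRB) reached a mean of 10, while DCN and LUM stood at 0, and the sum ran from 1371 to 1705 in siRNF40, from 1016 to 1172 in siTG2 and from 822 to 997 in siControl libraries. The 6 leukocyte and red cell markers summed to at most 48.0 in any library. The part of these differences between groups in the results that follow was not tested. In such bulk RNA, fewer cells with a transcript and less of it per cell cannot be told apart.

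DYNLRB1, a roadblock light chain that dimerizes on the dynein intermediate chains (ENSG00000125971, chromosome 20, 33104214 to 33128762 on the plus strand of hg19), had 2417, 2638 and 2809 normalized counts in siRNF40 libraries, 345, 458 and 497 in siTG2 libraries and 2127, 2262 and 2133 in siControl libraries. A normalized count is the read count of a gene divided by the size factor of its library. All siTG2 libraries lay far below the others, and all siRNF40 libraries lay above every siControl library. The means were 2621 ± 197 in siRNF40, 434 ± 79.3 in siTG2 and 2174 ± 76.0 in siControl (SD, n = 3 each), so that siTG2 cells kept 19.9% of the siControl level. The fitted log2 fold change was 0.27 in siRNF40 and -2.34 in siTG2, both against siControl, each with an SE of 0.11. The siTG2 change was the 14th lowest of the 17663 genes tested, a rank that follows from how DYNLRB1 was chosen. In the authors' deposited table the siTG2 log2 fold change of DYNLRB1 was -2.33, with an SE of 0.11. DYNLRB2, the other human roadblock light chain gene, had 0 reads in all 9 libraries, which, with 3 reads as the upper limit for a count of 0, allows at most 3 of the 29161285 reads of the shallowest library (counting error only).

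**Figure D1:**
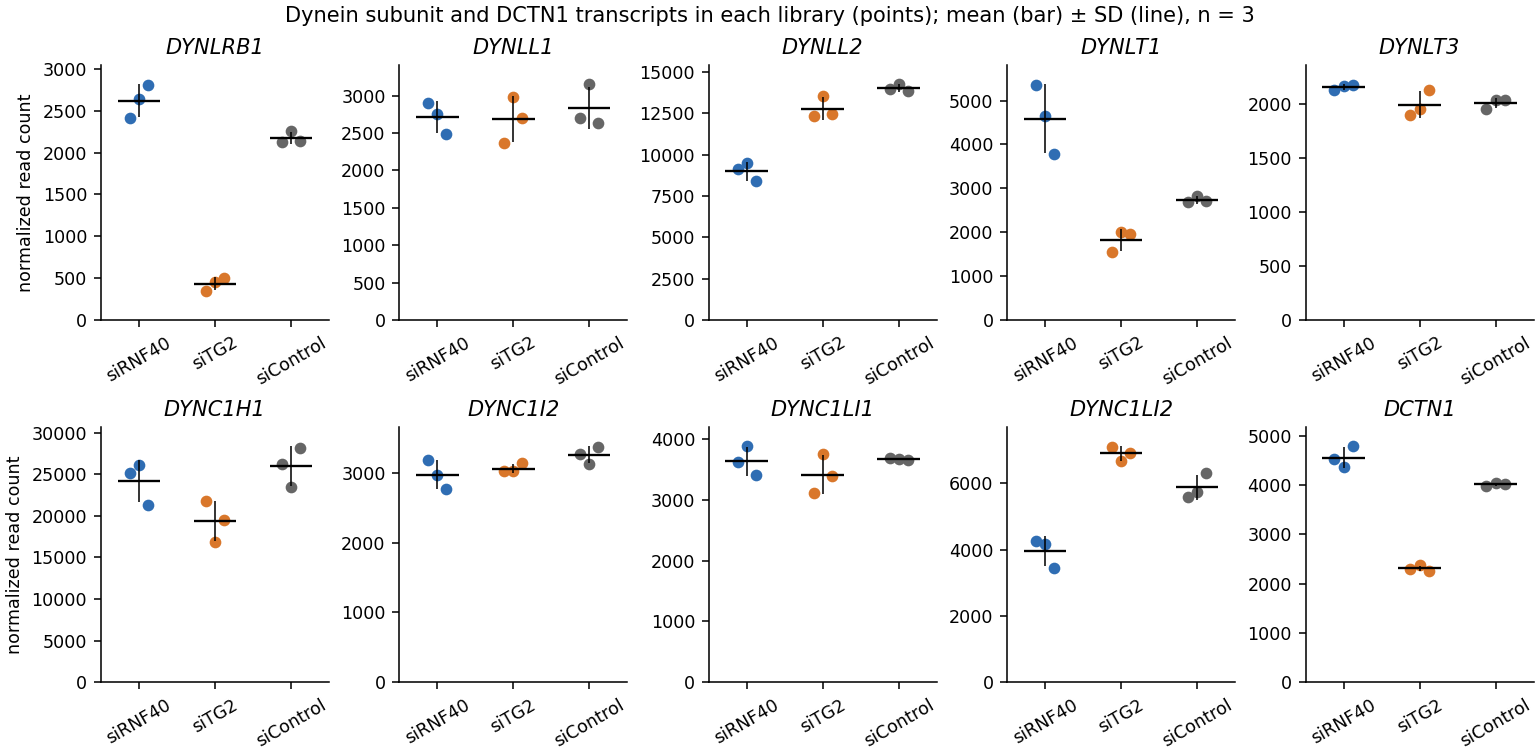
Normalized read count (y axis, from 0) of each dynein subunit and of DCTN1 in the 3 libraries of siRNF40, siTG2 and siControl (points), with the mean (bar) and SD (line). DYNLRB1 sits at 345 to 497 in siTG2 libraries, against 2127 to 2262 in siControl libraries, while DYNLL1, DYNC1I2 and DYNC1LI1 overlap between all groups.

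An earlier search of these data had picked 2 words of 7 bases by the changes of genes that hold them in their 3′ untranslated region, GCGCCCT for siTG2 and GTCTTCA for siRNF40. They were looked up here in the principal GENCODE 29 transcript of each gene, on the sense strand alone, since DYNLRB1 holds the first of them in its 3′ untranslated region, at bases 539 to 545 of the 675 of DYNLRB1-202. DYNC1H1 holds the same word 4 times in its coding sequence, and DCTN1 holds it once in its 5′ untranslated region and once in its coding sequence. DYNC1LI2 holds the second word once in its 3′ untranslated region, and DYNC1H1 holds it once in its coding sequence. RNF40, the other siRNA target, has 2 sites of the second word in its coding sequence and 1 in its 3′ untranslated region. It also has 2 sites of the first word in its 5′ untranslated region, and its sites are not shown. The sites of the members are shown with the bases around them, as the sense strand of the transcripts (GRCh38), with the word in capitals. Beside them is the site of the first word in the coding sequence of TGM2.
DYNLRB1, 3′ untranslated region: cccagagctccggaGCGCCCTctcctcac
DYNC1H1, coding sequence, site 1: gctggaggagaagaGCGCCCTggagcaga
DYNC1H1, coding sequence, site 2: gaggtggagatgccGCGCCCTtgcactct
DYNC1H1, coding sequence, site 3: catgacactcttcaGCGCCCTccgggcct
DYNC1H1, coding sequence, site 4: tccacgtccgacggGCGCCCTgcctggat
DCTN1, 5′ untranslated region: tctatgagggcccaGCGCCCTgaccctcc
DCTN1, coding sequence: gagacagtatctcaGCGCCCTggagccac
TGM2, coding sequence: gcaccaagtacgatGCGCCCTttgtcttt
DYNC1LI2, 3′ untranslated region: agtcactgtgggatGTCTTCAaagtcagc
DYNC1H1, coding sequence, second word: gcttagcagagactGTCTTCAacttccaa
Beyond the 7 bases the 14 bases before the word differed between DYNLRB1 and TGM2, which shared 5 of the 14 by position. The DYNC1H1 and DCTN1 sites of the first word shared 2 to 4 of the 14 with TGM2. For the second word DYNC1LI2 shared 8 of the 14, and DYNC1H1 5, with the most alike of the RNF40 sites. What such sharing means was not tested.

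Among 13331 tested protein-coding genes, 371 (2.78%) held GCGCCCT in the 3′ untranslated region of the principal transcript, and 41.2% of these were called lower in siTG2 against siControl. A further 1216 genes (9.12%) held it in the coding sequence and not in that region, with 30.4% called lower, and 11744 genes (88.1%) held it in neither, with 21.5% called lower. The second word, GTCTTCA, was in the 3′ untranslated region of 1674 genes (12.6%), of which 53.9% were called lower in siRNF40 against siControl, as were 44.9% of the 1845 genes (13.8%) with it in the coding sequence and not in that region and 21.3% of the 9812 genes with it in neither. In the same order of sets, 9.97%, 15.5% and 14.8% were called higher in siTG2 for GCGCCCT. For GTCTTCA 11.4%, 12.6% and 28.8% were called higher in siRNF40. The sets were not matched for transcript length or base content. Since the words were picked on these libraries, those shares are a description. DYNLT1, DYNLT3, DYNLL1, DYNLL2, DYNC1I2 and DYNC1LI1 held neither word anywhere in the principal transcript. A match says only that the letters are present, and its part in any level was not tested.

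The LC8 light chains DYNLL1 and DYNLL2 are dimers that also bind many proteins outside dynein. DYNLL1 (ENSG00000088986, chromosome 12) averaged 2717 ± 211 normalized counts in siRNF40, 2686 ± 307 in siTG2 and 2833 ± 281 in siControl (SD, n = 3 each), and all groups overlapped. Its log2 fold change was -0.06 in siRNF40 (SE 0.09, limma adjusted p = 0.63) and -0.08 in siTG2 (limma adjusted p = 0.55). The overlapping antisense gene DYNLL1-AS1 had 11.7% of the level of DYNLL1, and reads of the pair may have been split by the authors' counting.

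DYNLL2 (ENSG00000264364, chromosome 17) had 9112, 9489 and 8389 normalized counts in siRNF40 libraries, 12347, 13578 and 12465 in siTG2 libraries and 13994, 14277 and 13836 in siControl libraries. The siRNF40 libraries lay below all others, and the siTG2 libraries lay narrowly below the siControl libraries. DYNLL2 fell in siRNF40 to 64.1% of the siControl mean, a log2 fold change of -0.64 (SE 0.06, limma adjusted p = 1.03e-07). In siTG2 the log2 fold change of -0.13 did not pass the test (SE 0.06, limma adjusted p = 0.11). DYNLL2 was also lower in siRNF40 than in siTG2, by a log2 fold change of -0.51 (limma adjusted p = 1.22e-06).

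DYNLT1, a Tctex light chain that dimerizes on the intermediate chains (ENSG00000146425, chromosome 6), had 5353, 4638 and 3781 normalized counts in siRNF40 libraries, 1539, 1998 and 1953 in siTG2 libraries and 2678, 2836 and 2703 in siControl libraries. No groups overlapped: siRNF40 was the highest and siTG2 the lowest. DYNLT1 rose in siRNF40 to 168% of the siControl mean (log2 fold change 0.73, SE 0.11, limma adjusted p = 1.91e-05). It fell in siTG2 to 66.8% of that mean (log2 fold change -0.59, SE 0.11, limma adjusted p = 0.00035). The direct contrast of siRNF40 against siTG2 gave a log2 fold change of 1.32 (limma adjusted p = 6.85e-09).

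DYNLT3, the Tctex light chain that binds the checkpoint protein BUB3 (ENSG00000165169, chromosome X), averaged 2158 ± 27.0 normalized counts in siRNF40, 1995 ± 122 in siTG2 and 2011 ± 46.1 in siControl (SD, n = 3 each). The siRNF40 libraries lay above the siControl libraries, and the siTG2 and siControl libraries overlapped. The log2 fold changes were 0.10 in siRNF40 (SE 0.07, limma adjusted p = 0.26) and -0.01 in siTG2 (SE 0.07, limma adjusted p = 0.92).

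DYNC1H1, the heavy chain that holds the motor (ENSG00000197102, chromosome 14, 102430865 to 102517129 on the plus strand of hg19), had 25172, 26094 and 21269 normalized counts in siRNF40 libraries, 21751, 16873 and 19466 in siTG2 libraries and 26299, 23504 and 28223 in siControl libraries. The siTG2 libraries lay below all siControl libraries, while siRNF40 overlapped both groups. DYNC1H1 fell in siTG2 to 74.5% of the siControl mean (log2 fold change -0.43, SE 0.09, limma adjusted p = 0.0013). In siRNF40 the log2 fold change of -0.11 did not pass the test (limma adjusted p = 0.36), but quantile normalization gave -0.34 (limma adjusted p = 0.0044). Against siTG2 the siRNF40 libraries were higher by a log2 fold change of 0.32 (limma adjusted p = 0.0056). That last value fell to 0.15 with libraries scaled to equal totals (limma adjusted p = 0.185) and turned to -0.067 under quantile normalization (limma adjusted p = 0.56).

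DYNC1I2, the intermediate chain on which the light chains and dynactin assemble (ENSG00000077380, chromosome 2), averaged 2970 ± 209 normalized counts in siRNF40, 3058 ± 68.8 in siTG2 and 3257 ± 122 in siControl (SD, n = 3 each), with overlap between all groups. The log2 fold changes were -0.13 in siRNF40 (SE 0.07, limma adjusted p = 0.12) and -0.09 in siTG2 (SE 0.07, limma adjusted p = 0.35). Its contrast of siRNF40 against siTG2, -0.04, passed the test only with libraries scaled to equal totals, at -0.22 (limma adjusted p = 0.0102). DYNC1I1, the neuronal intermediate chain, had 1, 0 and 1 reads in siRNF40 libraries, 11, 11 and 7 in siTG2 libraries and 5, 10 and 5 in siControl libraries, and was below the level tested. DYNC1I2 thus supplied nearly all intermediate chain reads in every library.

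The light intermediate chains DYNC1LI1 and DYNC1LI2 bind the cargo adaptors. DYNC1LI1 (ENSG00000144635, chromosome 3) averaged 3631 ± 239 normalized counts in siRNF40, 3413 ± 319 in siTG2 and 3670 ± 11.7 in siControl (SD, n = 3 each), and all groups overlapped. Its log2 fold changes were -0.02 in siRNF40 (SE 0.07, limma adjusted p = 0.87) and -0.11 in siTG2 (SE 0.07, limma adjusted p = 0.29).

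DYNC1LI2 (ENSG00000135720, chromosome 16) had 4264, 4174 and 3434 normalized counts in siRNF40 libraries, 7110, 6676 and 6922 in siTG2 libraries and 5587, 5740 and 6300 in siControl libraries. No groups overlapped, and siTG2 was the highest and siRNF40 the lowest, the reverse of DYNLT1. DYNC1LI2 fell in siRNF40 to 67.3% of the siControl mean (log2 fold change -0.57, SE 0.08, limma adjusted p = 6.84e-06). It rose in siTG2 to 117% of that mean (log2 fold change 0.23, SE 0.08, limma adjusted p = 0.028). The siTG2 call was lost without siControl replicate 1, where limma's adjusted p was 0.126, siControl replicate 2 (0.092), siTG2 replicate 1 (0.086) or siTG2 replicate 3 (0.076), and with no filter on low values (0.058). Between the knockdowns the log2 fold change of siRNF40 against siTG2 was -0.81 (limma adjusted p = 5.91e-08).

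DCTN1, the largest subunit of dynactin, binds both the dynein intermediate chain and the microtubule (ENSG00000204843, chromosome 2, 74588281 to 74619214 on the minus strand of hg19). It had 4526, 4363 and 4788 normalized counts in siRNF40 libraries, 2303, 2368 and 2251 in siTG2 libraries and 3981, 4046 and 4023 in siControl libraries. No groups overlapped, and the order of the groups was that of DYNLRB1 and DYNLT1. DCTN1 fell in siTG2 to 57.4% of the siControl mean (log2 fold change -0.80, SE 0.06, limma adjusted p = 1.83e-08). Among the 9 tested members this was the lowest siTG2 change. In siRNF40 it rose by a log2 fold change of 0.18 (SE 0.06, limma adjusted p = 0.0255). The siRNF40 call was lost without siControl replicate 1 (limma adjusted p = 0.081), siControl replicate 2 (0.058), siControl replicate 3 (0.067) or siRNF40 replicate 3 (0.077), with libraries scaled to equal totals (0.070) and with no filter on low values (0.056). The contrast of siRNF40 against siTG2 gave 0.98 (limma adjusted p = 2.80e-10).

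**Figure D2:**
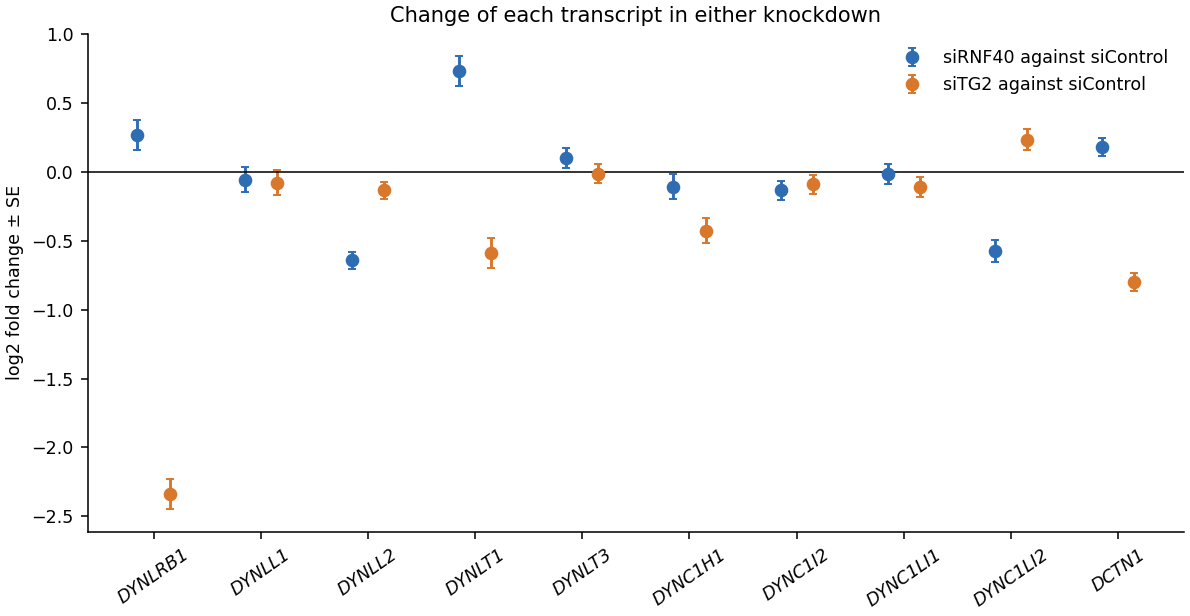
Log2 fold change with SE (y axis) of each transcript in siRNF40 against siControl (blue) and in siTG2 against siControl (orange). In siTG2 DYNLRB1 is at -2.34, DCTN1 at -0.80, DYNLT1 at -0.59 and DYNC1H1 at -0.43, and in siRNF40 DYNLT1 is at 0.73, DYNLL2 at -0.64 and DYNC1LI2 at -0.57.

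In siRNF40 against siControl 2 of the 9 tested members rose (DYNLT1 and DCTN1) and 2 fell (DYNLL2 and DYNC1LI2), while 45.3% of all genes tested were called, 21.7% higher and 23.6% lower. The 4 called members are 44.4% of the 9, close to that background, which covers all gene types and was not matched for level. In siTG2 against siControl 1 member rose (DYNC1LI2) and 3 fell (DYNLT1, DYNC1H1 and DCTN1), beside 31.3% of all genes called, 12.8% higher and 18.5% lower. These 4 called members are likewise 44.4% of the 9. In siRNF40 against siTG2 3 members were higher (DYNLT1, DYNC1H1 and DCTN1) and 2 lower (DYNLL2 and DYNC1LI2), beside 53.3% of all genes called, with 26.6% higher and 26.6% lower. The 5 called are 55.6% of the 9. The median log2 fold change of the 9 members was -0.06 in siRNF40 and -0.11 in siTG2, beside 0.02 and -0.01 over all genes tested. The 2 knockdowns were set against the same 3 siControl libraries.

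Reads of 2 paralogues in the same library give a ratio that does not depend on how libraries are scaled. The ratio of DYNLT1 to DYNLT3 was 2.52, 2.14 and 1.74 in siRNF40 libraries, 0.811, 1.02 and 0.916 in siTG2 libraries and 1.37, 1.39 and 1.33 in siControl libraries. DYNLT1 was thus the more counted Tctex chain in siControl and siRNF40 cells, and its count was close to that of DYNLT3 in siTG2 cells. Such ratios take no account of length, so they do not give which transcript is the more abundant. Per kilobase of the principal transcript DYNLT1 stood at 2521 normalized counts in siTG2, and DYNLT3 at 900. The ratio of DYNC1LI1 to DYNC1LI2 was 0.847, 0.929 and 0.991 in siRNF40 libraries, 0.437, 0.561 and 0.489 in siTG2 libraries and 0.659, 0.640 and 0.580 in siControl libraries. The ratio of DYNLL1 to DYNLL2 was 0.319, 0.290 and 0.297 in siRNF40 libraries, 0.192, 0.220 and 0.217 in siTG2 libraries and 0.193, 0.221 and 0.191 in siControl libraries. No groups overlapped for the first 2 pairs, and for the LC8 pair only siTG2 and siControl overlapped. The difference in mean log2 ratio against siControl was 0.63 in siRNF40 and -0.58 in siTG2 for the Tctex pair, 0.56 and -0.34 for the light intermediate pair, and 0.58 and 0.06 for the LC8 pair. Two-sided p-values from exact permutation of the libraries were 0.1 in 8 of the 9 contrasts, and 3 libraries against 3 allow none smaller, so no contrast could pass 0.05. The LC8 pair in siTG2 against siControl gave an exact permutation p of 0.8.

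**Figure D3:**
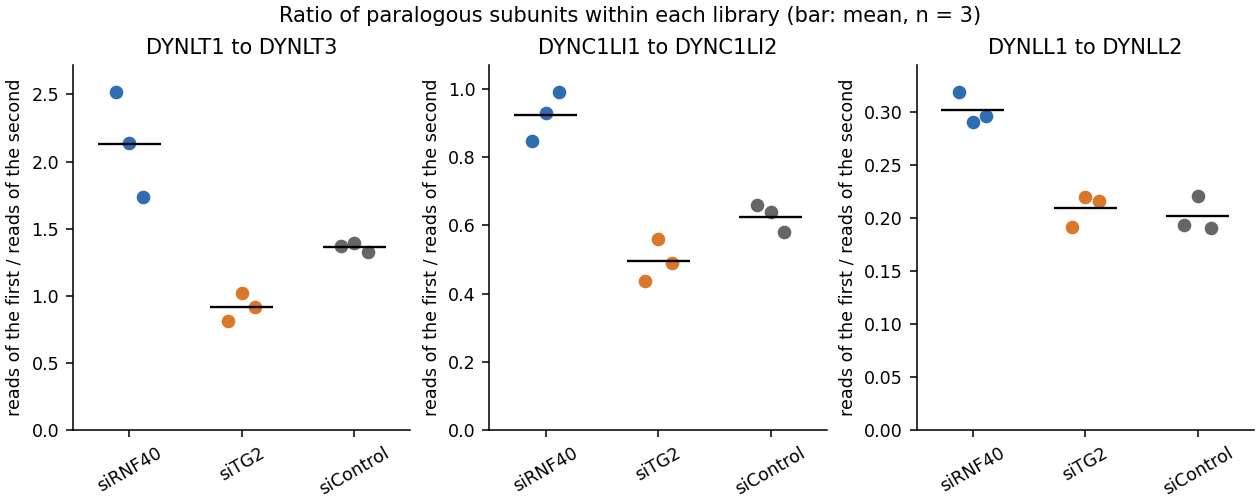
Ratio of the reads of 2 paralogous subunits within each library (points, y axis from 0) with the mean of 3 libraries (bar) in siRNF40, siTG2 and siControl. The DYNLT1 to DYNLT3 ratio lies between 1.74 and 2.52 in siRNF40, between 0.811 and 1.02 in siTG2 and between 1.33 and 1.39 in siControl.

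Levels of different subunits were compared per kilobase of the principal transcript. In siControl 4 of the 5 light chains had the highest levels by this length, with DYNLT1 at 3773 ± 117 normalized counts per kilobase, DYNLL1 at 3480 ± 345, DYNLRB1 at 3221 ± 113 and DYNLL2 at 2063 ± 32.8 (SD, n = 3 each). The larger chains lay closer together per kilobase, with DYNC1LI1 at 1466 ± 4.7, DYNC1LI2 at 1301 ± 83.2, DYNC1H1 at 1300 ± 119 and DYNC1I2 at 1251 ± 46.8, and DYNLT3 (907 ± 20.8) and DCTN1 (893 ± 7.3) were the lowest. Neighbours in this order overlapped from DYNLT1 to DYNLRB1 by way of DYNLL1, from DYNC1LI2 to DYNC1I2, and between DYNLT3 and DCTN1. DYNLRB1 ranked 2 of 10 in siRNF40 (3883 ± 291) and 9 of 10 in siTG2 (642 ± 117), against 3 of 10 in siControl. The order rests on the length used. Over the union of annotated exons DYNLRB1 came to 884 and DYNLL1 to 1165 normalized counts per kilobase in siControl, ranks 8 and 6 of 10. Both were then below DYNC1LI1 (1466), DYNC1H1 (1300) and DYNC1LI2 (1213). By that length DYNLRB1 ranked 6 of 10 in siRNF40 and 10 of 10 in siTG2.

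The other genes of the pathway were taken from 9 lists that together held 91 genes, of which 84 were tested. In siRNF40 against siControl 25 were called higher and 21 lower, and in siTG2 against siControl 15 were called higher and 16 lower. The called genes were 54.8% of the 84 in siRNF40, beside 45.3% of all genes, and 36.9% in siTG2, beside 31.3%. The shares of all genes, here and for each list, cover every gene type with a mean of at least 10. They were not matched to the lists for gene type or level, so small differences from them carry no meaning. Their median log2 fold changes were 0.08 in siRNF40 and 0.09 in siTG2.

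The other subunits of dynactin, which couples dynein to cargo, numbered 11. In siRNF40 2 rose and 1 fell, 27.3% of the list beside 45.3% of all genes. In siTG2 2 fell and none rose, 18.2% beside 31.3% of all genes, and the median log2 fold change was -0.09. DCTN2, the subunit dynamitin of the dynactin shoulder, had 4549, 4555 and 5255 normalized counts in siRNF40 libraries, 2154, 2300 and 1944 in siTG2 libraries and 3623, 3784 and 3257 in siControl libraries. No groups overlapped. DCTN2 fell in siTG2 (log2 fold change -0.74, SE 0.08, limma adjusted p = 1.36e-06) and rose in siRNF40 (0.43, limma adjusted p = 0.00027), in the same order of groups as DCTN1. CAPZA1, an actin capping subunit, fell in siTG2 by 0.19 on the log2 scale (limma adjusted p = 0.018). That call was lost without siControl replicate 3 (limma adjusted p = 0.090) or siTG2 replicate 2 (0.062) and with equal totals (0.56), and its value turned to 0.0044 under quantile normalization. In siRNF40 CAPZB, another capping subunit, rose (0.35, limma adjusted p = 0.00027). There DCTN5, of the pointed end complex, fell to 965.6 ± 12.4 normalized counts, against 1949 ± 81.9 in siControl (log2 fold change -1.01, SE 0.08, limma adjusted p = 4.89e-09). DCTN4 and CAPZA2 were not called in either knockdown against siControl, with log2 fold changes between -0.03 and 0.09. With equal totals both, CAPZB and DCTN5 were called higher in siTG2, as they were under quantile normalization.

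All 4 genes of the LIS1 and NudE group, which helps dynein into its active form, were called in siRNF40, 2 higher and 2 lower, where 45.3% of all genes were called, and 1 fell in siTG2. In siRNF40 NDE1 fell (log2 fold change -0.52, limma adjusted p = 6.97e-06), while its paralogue NDEL1 rose (0.41, limma adjusted p = 9.71e-05), as did NUDC (0.47, limma adjusted p = 4.43e-05). Their siTG2 values of -0.17, -0.04 and 0.07 did not pass the test. Of 19 alternatives, 3 called NDE1 lower and 1 called NUDC higher in siTG2. PAFAH1B1, the gene of LIS1, had 4669, 4667 and 4265 normalized counts in siRNF40 libraries, 4367, 4160 and 4357 in siTG2 libraries and 5367, 4775 and 5224 in siControl libraries. Both knockdowns lay below all siControl libraries. PAFAH1B1 fell in siTG2 (log2 fold change -0.25, limma adjusted p = 0.0066), a call lost with equal totals (0.222) and quantile normalization (0.327). In siRNF40 its fall of -0.18 (limma adjusted p = 0.0375) was lost in 7 alternatives, among them leaving out siControl replicate 1 (0.167), siControl replicate 3 (0.119), siRNF40 replicate 3 (0.118) or siTG2 replicate 3 (0.052).

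The 3 genes of the RZZ complex, which brings dynein to kinetochores, all fell in siTG2, where 18.5% of all genes did, and 2 of them fell in siRNF40, where 23.6% of all genes did. KNTC1 averaged 1795 ± 199 normalized counts in siRNF40, 2545 ± 163 in siTG2 and 3197 ± 20.8 in siControl (SD, n = 3 each), with no overlap between groups. Its log2 fold changes were -0.84 in siRNF40 (limma adjusted p = 1.03e-07) and -0.33 in siTG2 (limma adjusted p = 0.0039). ZWILCH gave -0.42 in siRNF40 (limma adjusted p = 0.0015) and -0.53 in siTG2 (limma adjusted p = 0.00028). ZW10 gave -0.17 in siRNF40, which did not pass the test (limma adjusted p = 0.16), and -0.37 in siTG2 (limma adjusted p = 0.0070). With equal totals the siTG2 calls of KNTC1 (limma adjusted p = 0.079) and ZW10 (0.088) were lost.

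Of 22 tested activating adaptors, which join dynein to dynactin and to cargo, 8 rose and 7 fell in siRNF40, and 4 rose and 3 fell in siTG2. These are 68.2% and 31.8% of the list, beside 45.3% and 31.3% of all genes. SPDL1, the adaptor of kinetochores, fell in siRNF40 to 415 ± 39.8 normalized counts, against 1413 ± 114 in siControl (log2 fold change -1.77, SE 0.10, limma adjusted p = 7.32e-11), and its siTG2 value of -0.11 did not pass the test. HOOK1, an adaptor of early endosomes, fell in siRNF40 (log2 fold change -1.17, limma adjusted p = 1.74e-08). It also fell in siTG2 (-0.30, limma adjusted p = 0.025), a call lost without siControl replicate 1 (0.059), siControl replicate 3 (0.104) or siTG2 replicate 2 (0.119) and with equal totals (0.229) or quantile normalization (0.172). HAP1, an adaptor known from neurons, rose in both, by log2 fold changes of 1.06 in siRNF40 and 1.15 in siTG2, and CCDC64, a relative of the BICD adaptors, fell in siRNF40 (-0.97, limma adjusted p = 8.70e-06). NUMA1, which anchors dynein at the cell cortex in mitosis, and HOOK2 were called in neither knockdown, with log2 fold changes between -0.08 and 0.16, although equal totals and quantile normalization called HOOK2 higher in siTG2.

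Dynein 2, the motor of cilia, has subunits of its own, and of the 5 tested none was called in siRNF40, where 45.3% of all genes were. Equal totals (limma adjusted p = 0.045) and leaving out siControl replicate 2 (0.034) or siRNF40 replicate 2 (0.039) called DYNC2H1 lower there. In siTG2 1 rose and 1 fell, 40.0% beside 31.3% of all genes. In siTG2 its heavy chain DYNC2H1 rose to 451 normalized counts, against 289 in siControl (log2 fold change 0.64, limma adjusted p = 0.0039). Its intermediate chain WDR34 fell (-0.30, limma adjusted p = 0.0089), a call lost without siTG2 replicate 1 (0.065), with equal totals (0.148) and with quantile normalization (0.132). The log2 fold changes of WDR60 were -0.03 in siRNF40 and 0.23 in siTG2, and those of DYNC2LI1 were 0.22 and 0.11, with no call, although 6 of 19 alternatives called WDR60 higher in siTG2.

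Of 8 proteins that bind the LC8 chains outside or beside the motor, 3 rose and 3 fell in siRNF40, and 2 rose and 1 fell in siTG2. The called genes were 75.0% and 37.5% of the list, beside 45.3% and 31.3% of all genes. BMF, a BH3-only protein held by DYNLL2, rose in siTG2 to 193 normalized counts, against 62.6 in siControl (log2 fold change 1.64, limma adjusted p = 2.56e-05). In siRNF40 BMF rose by 0.79 (limma adjusted p = 0.0098), a call lost without siControl replicate 1 (0.055). BCL2L11, the BH3-only protein BIM held by DYNLL1, fell in siRNF40 (-0.37, limma adjusted p = 0.0025), as did ATMIN, the transcription factor that drives DYNLL1 (-0.48, limma adjusted p = 1.17e-05), while the level of DYNLL1 itself is given above. The siTG2 fall of ATMIN (-0.19, limma adjusted p = 0.042) was lost in 10 of 19 alternatives, including the removal of any siControl library or of siTG2 replicate 1 or 2 (limma adjusted p 0.058 to 0.167). WWC1, the gene of KIBRA, rose in siRNF40 (0.86, limma adjusted p = 9.72e-09), and the autophagy regulator AMBRA1 was called in neither (-0.09 and 0.18), although equal totals and quantile normalization called it higher in siTG2.

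**Figure D4:**
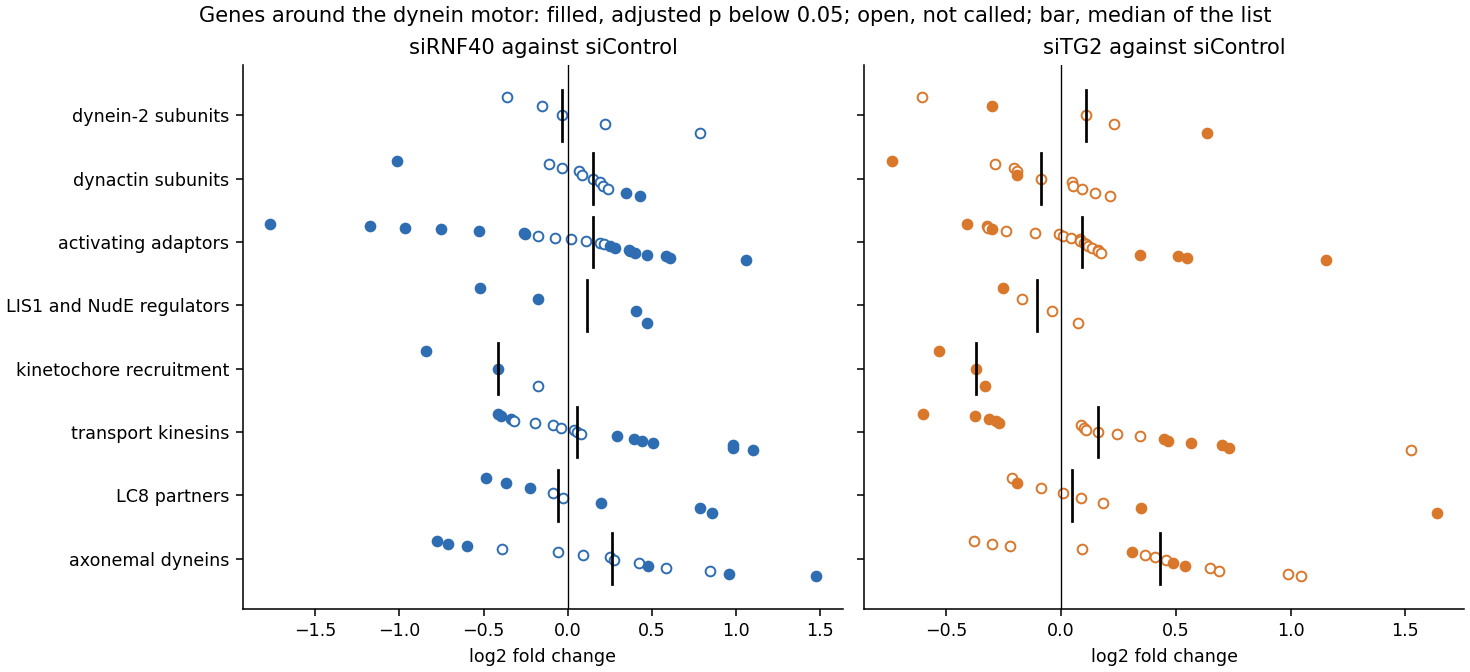
Log2 fold change (x axis) of each tested gene in the lists around the dynein motor, in siRNF40 against siControl (left) and siTG2 against siControl (right), with filled points for an adjusted p below 0.05 and a bar at the median of each list. All 3 kinetochore genes are filled and below 0 in siTG2, while most other lists have points on either side of 0.

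The genes whose log2 values followed those of DYNLRB1 most closely over the 9 libraries, among 11795 genes with a mean of at least 100, were RAC1 (Pearson r = 0.998), PPIL1 (0.996), FURIN (0.996), AP3S1 (0.995) and IRAK1 (0.995). The 9 points come from 3 groups that share their normalization, and the values are a description with no test. RAC1, a small GTPase of the actin cytoskeleton, averaged 12635 ± 191 normalized counts in siRNF40, 5380 ± 412 in siTG2 and 11247 ± 534 in siControl (SD, n = 3 each). AP3S1, a subunit of the AP-3 sorting adaptor, averaged 23677 ± 1183 in siRNF40, 7191 ± 633 in siTG2 and 20469 ± 441 in siControl. None of the 5 held GCGCCCT in the 3′ untranslated region of the principal transcript, while RAC1 held it once in the 5′ untranslated region and FURIN once in the coding sequence. Among the other members r with DYNLRB1 ran from -0.76 for DYNC1LI2 to 0.85 for DYNLT1 and 0.99 for DCTN1. The difference between groups by which DYNLRB1 was chosen enters each r. The spread of r over all genes was not set beside these values.

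The 6 nearest tested protein-coding genes beside DYNLRB1 on chromosome 20 had siTG2 log2 fold changes from -0.62 to 0.34. ITCH, a ubiquitin ligase whose gene ends 5.0 kb before DYNLRB1 starts, had 4160, 4301 and 3614 normalized counts in siRNF40 libraries, 4369, 3927 and 4208 in siTG2 libraries and 6302, 6026 and 6921 in siControl libraries. Both knockdowns lay below siControl, and ITCH fell in siRNF40 (log2 fold change -0.67, SE 0.08, limma adjusted p = 7.03e-07) and in siTG2 (-0.62, SE 0.08, limma adjusted p = 4.35e-06). PIGU, of the enzyme that attaches GPI anchors, lies on the minus strand, with its nearest base 19.6 kb past the end of DYNLRB1. The siTG2 log2 fold change of PIGU, -0.28, did not pass the test (SE 0.11, limma adjusted p = 0.052). Farther out, AHCY rose in siRNF40 (0.99, limma adjusted p = 1.89e-09) with a siTG2 value of -0.11, NCOA6 fell in siTG2 (-0.35, limma adjusted p = 0.0017), TP53INP2 rose in siRNF40 (0.67, limma adjusted p = 0.00015), and ASIP was called in neither. TP53INP2 lies within the annotated span of NCOA6 on the other strand, so their reads may not be told apart.

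**Figure D5:**
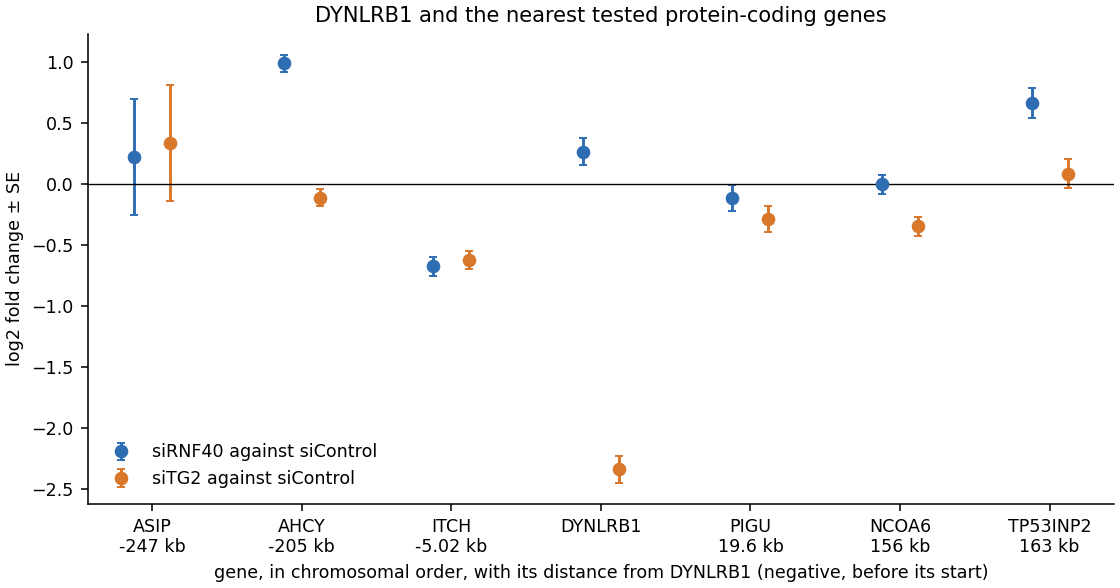
Log2 fold change with SE (y axis) of DYNLRB1 and of the 3 nearest tested protein-coding genes on each side, in chromosomal order with the distance from DYNLRB1 in kilobases under each name (x axis, not to scale), in siRNF40 against siControl (blue) and siTG2 against siControl (orange). DYNLRB1 is at -2.34 in siTG2, and ITCH, 5.0 kb away, is at -0.62.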

How the data were processed

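RNA-seq of 9 HCT116 libraries was used as the authors deposited it: a table of signal values, read counts per gene divided by size factors of DESeq2, with gene coordinates of hg19. Trim Galore 0.4.1, STAR 2.7.0, HTSeq 0.12.4 and DESeq2 are named in the submitters' processing notes, which name hg19 and hg38, while strandedness at counting is not given in the sources used here. Control columns were matched to siControl through the authors' deposited comparison tables of log2 fold changes and adjusted p-values. The step of each column gave whole reads for 100% of values within 0.001 reads, and total reads per library gave the depth, 29161285 to 35743918.

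Values were tested as log2(value + 1) with limma 3.58.1 (R 4.3.3, trend), over 17663 genes with a mean of at least 10, all 9 libraries, no covariates, Benjamini-Hochberg adjustment and a threshold of 0.05. Fold changes are on that scale and understate changes of low genes. The fit was also run on simulated counts, with few genes changed, in siTG2 alone, and the same dispersion set for every gene. Those settings differ from these libraries, so that run does not show how well the calls here hold. Alternatives included edgeR 4.0.16 and DESeq2 1.42.0 on the recovered reads. Without a stated strand setting, overlapping genes may share reads. Pseudogene rows of members had means of at most 11.1. Same-numbered libraries deviated with correlations of -0.075 to 0.081, under the 0.1 set for pairing, so no block was used. Replicates differed beyond sampling noise (chi-square over degrees of freedom 5.28 to 23.9).

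Members and lists were chosen with earlier results of these data known. From each list up to 4 called genes with the largest absolute log2 fold change and up to 2 uncalled genes were named, with a mean of at least 50, plus the 5 genes most correlated with DYNLRB1 and the 3 nearest tested protein-coding genes on each side. Words were searched in GENCODE 29 principal transcripts. The sequences of the siRNAs were not used here.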

Additional observations from a re-analysis of the deposited data

How the results depend on the processing

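Across 19 alternatives (DESeq2, edgeR with TMM, other scalings, filters, pseudocounts, the 6 libraries of a comparison alone, a replicate block and each library left out) the number of called members stayed between 3 and 5 in siRNF40, 3 and 4 in siTG2, and 4 and 5 in the direct contrast. Of the values of the 9 tested members, 498 kept direction and side of the threshold (28 of these changed sign while called in neither fit), 12 lost the call and 2 gained it. The log2 fold change of DYNLRB1 in siTG2 ran from -2.45 to -2.18. Reversals of called values came from quantile normalization alone: DYNC1H1 in siRNF40 against siTG2 (-0.067) and CAPZA1 in siTG2 (0.0044), and the cause was not tested. With libraries scaled to equal totals the median log2 fold change of all genes was 0.135 in siTG2 against siControl and -0.189 in siRNF40 against siTG2, beside -0.00685 and -0.0144 with the authors' scaling. Same-numbered libraries share only a number, and a replicate block gave 4, 4 and 5 called members and 7735, 5164 and 9203 called genes, in siRNF40 and siTG2 against siControl and in siRNF40 against siTG2. Depth limits DYNLRB2 and DYNC1I1, which had too few reads to test.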

Other observations

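Of 17 transport kinesins, which mostly walk away from the cell centre, 7 rose and 3 fell in siRNF40, and 5 rose and 5 fell in siTG2. The called kinesins were 58.8% of the 17 in either knockdown, beside 45.3% of all genes in siRNF40 and 31.3% in siTG2. The kinesin light chains KLC3 and KLC4 rose in siRNF40 by log2 fold changes of 1.10 and 0.98 (limma adjusted p = 1.14e-06 and 2.52e-06). KLC3 in siTG2 was at 0.34 (limma adjusted p = 0.051), which 10 of 19 alternatives called higher. The kinesin-2 motor KIF3C rose in siRNF40 (0.98) and in siTG2 (0.73), and KIF3A rose in siTG2 (0.70, limma adjusted p = 8.36e-06). KIF13B and KIF16B were called in neither knockdown against siControl. Of 19 alternatives, 4 called KIF16B lower in siRNF40, among them leaving out siRNF40 replicate 3 (limma adjusted p = 0.000805), and 2 called it higher in siTG2. Leaving out siRNF40 replicate 1 called KIF13B lower in siRNF40 (limma adjusted p = 0.029). Of 14 tested axonemal dyneins, motors of beating cilia, 3 rose and 3 fell in siRNF40 and 3 rose in siTG2, which are 42.9% and 21.4% of the list, beside 45.3% and 31.3% of all genes. DNAH1 averaged 315 normalized counts in siRNF40, 759 in siTG2 and 541 in siControl, so that it fell in siRNF40 (-0.78, limma adjusted p = 8.97e-06) and rose in siTG2 (0.49, limma adjusted p = 0.0019). DNAH2 fell in siRNF40 (-0.71, limma adjusted p = 0.0092). The siRNF40 fall of DNAH10 (-0.60, limma adjusted p = 0.020) was lost without siControl replicate 2 (0.081), siControl replicate 3 (0.078), siRNF40 replicate 2 (0.052) or siRNF40 replicate 3 (0.101). The siTG2 rise of DNAH17 (0.54, limma adjusted p = 0.030) was lost without siControl replicate 3 (0.157), siTG2 replicate 1 (0.108) or siTG2 replicate 3 (0.091) and under quantile normalization (0.094). DNAH14 and DNAH6 were called in neither knockdown against siControl. DNAH14 was higher in siRNF40 than in siTG2 (0.32, limma adjusted p = 0.0115). That call was lost without siRNF40 replicate 2 (0.064) or siTG2 replicate 3 (0.056) and with equal totals (0.251). Without siRNF40 replicate 2 DNAH6 was called lower in siRNF40 against siControl, at -0.73 (limma adjusted p = 0.0295) beside -0.39 with all libraries.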
